A study of Mus musculus with 5 samples.

Results

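The dystrophin glycoprotein complex and its autosomal homolog utrophin were followed through 7 of the 32285 genes of the count tables: Dmd, Utrn, Dag1, Sgca, Sgcb, Sgcd and Sspn. The 7 genes were chosen by name, not by their values, and each matched 1 row. RNA and open chromatin of single nuclei of mouse hindlimb muscle, dissected free of skin and bone, were read together by 10x Genomics multiome in 1 library for each of 5 groups. These were wild-type C57BL/6N embryos at E14.5 (56 hindlimbs pooled), wild-type fetuses at E18.5 (14), wild-type pups at P5 (8), wild-type adults of both sexes at 8 weeks (4), and Cacna1s-/- C57BL/6N fetuses at E18.5 (26), called KO. The KO allele is a KOMP null in which a cassette replaced the coding region of Cacna1s, the pore subunit of the Cav1.1 calcium channel. It is constitutive, so every cell of these fetuses lacked the gene and not the myofibers alone. Nuclei were sorted on PCM1 and PCNA, and PCM1+ and PCM1- nuclei were mixed by equal volume, so shares of cell types follow the mix and are not compared. With 1 library per group there is no replicate error, no test was possible and no p-value is given. Every interval is an exact 95% interval for counting error alone, and 2-fold was used as a rule of size for "higher" and "lower". Runs of values are given in library order, which is E14.5, then E18.5, then P5, then adult and last KO.

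Dystrophin links the actin cytoskeleton of the myofiber to a group of membrane proteins that hold on to the basement membrane. Dystroglycan, encoded by Dag1, is the laminin receptor of this group, the sarcoglycans form a tight subcomplex beside it, and sarcospan is a small membrane protein bound to the sarcoglycans. Loss of dystrophin causes Duchenne muscular dystrophy, and loss of single sarcoglycans causes limb-girdle dystrophies. Utrophin can take the place of dystrophin in the complex. It lies along the sarcolemma of immature fibers, and in mature fibers it is known mainly from the neuromuscular junction.

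Myonuclei were taken as nuclei in which Ttn, the gene of the sarcomere protein titin, made up at least 1% of gene UMIs, and are called Ttn-rich nuclei. There were 1867, 1579, 1733, 4429 and 987 such nuclei in library order, with medians of 4877, 6976, 6438, 3356 and 10333 UMIs. Their summed UMIs were between 10156121 and 19758491 per library. All 12 myonuclear markers other than Ttn were detected in these nuclei in every library, with summed levels between 9421 and 35013 CPM (counts-per-million units, UMIs scaled to all UMIs of the same nuclei). Cacna1s was at 207, 189, 349 and 326 CPM in the wild-type libraries from the youngest to the oldest, and at 0.720 CPM (8 UMIs) in KO, which matched the labels. Between 15 and 42 cell barcodes were shared by each pair of libraries.

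The genes differ widely in size and position. Dmd (ENSMUSG00000045103) lies at chrX:82948870-85206141 on the plus strand of GRCm38, and its 2257.27 kb make it the longest of the 7. Utrn (ENSMUSG00000019820) spans 487.178 kb at chr10:12382188-12869365 on the minus strand. Dag1 (ENSMUSG00000039952) covers 59.325 kb at chr9:108204634-108263958 on the minus strand. The sarcoglycan genes are Sgca (ENSMUSG00000001508; chr11:94962791-94976327, minus, 13.537 kb), Sgcb (ENSMUSG00000029156; chr5:73632749-73647790, minus, 15.042 kb) and Sgcd (ENSMUSG00000020354; chr11:46896253-47988969, minus, 1092.72 kb). Sspn (ENSMUSG00000030255) spans 33.583 kb at chr6:145931641-145965223 on the plus strand. Intronic reads were counted, so long genes collect more UMIs, and levels are compared between genes only per kilobase. Sgca overlaps Hils1 on the opposite strand and Dmd overlaps Tsga8; reads of such pairs could be mixed, since the sources used here do not state how strand was treated.

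The upstream sequences of some start sites that the chromatin results describe are shown first. Starts 1 and 2 of Utrn are named only. They are RefSeq sequences of GRCm38.p6, read 5′ to 3′ on the strand of the gene and ending at the base before the first annotated exon. Capitals mark matches on either strand to the E-box CANNTG, the GC box GGGCGG, the N-box TTCCGG, the TATA box TATAAA, the MEF2 site or the CArG box. Dmd start 1 (chrX:82948620-82948869) precedes the full-length muscle transcript and Dmd start 8 (chrX:85048045-85048294) precedes 5 short transcripts at the 3′ end of the gene, the Dp71 type. Both are shown because their peaks differed between cell classes. Dag1 start 1 (chr9:108263959-108264208) is shown as a start that was open in every class, Sgcd start 4 (chr11:47379523-47379575) as one whose counts were lower in adult, and Sgca start 1 (chr11:94976328-94976577) as the one start with a peak in adult alone.
Dmd start 1: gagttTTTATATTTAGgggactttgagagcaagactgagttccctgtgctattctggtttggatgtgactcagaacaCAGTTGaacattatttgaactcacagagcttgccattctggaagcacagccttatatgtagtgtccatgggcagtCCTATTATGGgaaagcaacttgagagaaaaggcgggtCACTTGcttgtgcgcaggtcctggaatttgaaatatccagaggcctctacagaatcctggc
Dmd start 8: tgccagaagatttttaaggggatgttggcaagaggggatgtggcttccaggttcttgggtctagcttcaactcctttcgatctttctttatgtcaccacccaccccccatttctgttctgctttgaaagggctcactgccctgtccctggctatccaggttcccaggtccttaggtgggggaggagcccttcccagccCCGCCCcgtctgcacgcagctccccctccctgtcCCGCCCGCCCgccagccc
Dag1 start 1: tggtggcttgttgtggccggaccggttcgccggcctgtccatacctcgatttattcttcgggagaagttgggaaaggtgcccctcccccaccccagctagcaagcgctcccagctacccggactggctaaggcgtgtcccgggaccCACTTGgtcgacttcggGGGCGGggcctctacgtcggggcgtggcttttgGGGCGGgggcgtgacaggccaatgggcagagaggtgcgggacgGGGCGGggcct
Sgcd start 4: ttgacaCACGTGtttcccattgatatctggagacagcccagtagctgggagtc
Sgca start 1: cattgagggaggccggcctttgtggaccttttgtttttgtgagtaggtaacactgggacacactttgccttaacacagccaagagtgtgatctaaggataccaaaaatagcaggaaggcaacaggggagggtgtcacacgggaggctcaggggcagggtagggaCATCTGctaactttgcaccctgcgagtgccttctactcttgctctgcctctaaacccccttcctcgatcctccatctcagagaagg

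The muscle start of Dmd held 1 MEF2 site, 1 CArG box, 2 E-boxes and 1 TATA box, which overlapped the MEF2 site, in 250 bases of 45.2% GC. Among 32851 promoter windows of this length, 2.92% held a MEF2 site, 1.47% a CArG box, 66.2% an E-box and 12.4% a TATA box. Both MEF2 and serum response factor, which binds CArG boxes, are known regulators of muscle genes. The start of the short Dmd transcripts held neither motif. It held 3 GC boxes, of which 2 overlapped, in 250 bases of 60% GC. The Dag1 window also held 3 GC boxes, with 1 E-box and 67.6% GC. GC boxes were in 32.7% of all windows, and the median GC content was 52.4%. The 53 bases before Sgcd start 4 held 1 E-box, which 20.5% of windows of that length hold, and Sgca start 1 held 1 E-box alone. No N-box was found in the windows searched, among which the window of Utrn was that of start 3, and starts 1 and 2 of Utrn were not searched here. A match is a description of the letters and not a site of binding.

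In the Ttn-rich nuclei, Dmd was the member with the most UMIs in every library. Dystrophin RNA was at 10991, 14376, 19224, 18404 and 17010 CPM in library order. Levels were lowest at E14.5 and differed by less than 2-fold between neighboring stages. Per kilobase of gene span, Dmd was between 4.87 and 8.52 CPM, against 1.69, 1.93, 1.38, 0.126 and 2.32 CPM for Utrn in library order. Dmd was the highest of the 7 per kilobase of span in each library, also per kilobase of exon.

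Utrn followed another course. Its level in library order was 822 CPM (804 to 840), 940 CPM (923 to 957), 670 CPM (655 to 684), 61.3 CPM (57.9 to 64.8) and 1132 CPM (1112 to 1152). The adult library stood far below the other 4, and KO was the highest. After each nucleus was thinned to 1000 UMIs, which shallower nuclei did not reach and which kept 1829, 1574, 1656, 3965 and 980 nuclei, Utrn was seen in 50.2%, 51.8%, 35.6%, 3.63% and 56.5% of Ttn-rich nuclei. Without thinning these shares were 86.1%, 89.4%, 71.6%, 9.01% and 92.4%. No class of nuclei lacked Utrn, so no background share can be set beside them.

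Dag1, the laminin receptor, was at 127, 341, 268, 304 and 347 CPM in library order. The E14.5 library was the low one. Sgca, the sarcoglycan found in striated muscle, was at 33.2, 71.4, 66.8, 46.5 and 61.6 CPM. Sgcb was at 49.4, 80.3, 98.2, 48.6 and 72.0 CPM, so that E14.5 and adult were alike and P5 was highest.

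Sgcd, which also serves in smooth muscle and other cells, was at 2649, 2107, 3189, 1703 and 2228 CPM, with its top at P5 and its lowest level in adult. Sspn was at 27.3, 52.8, 57.8, 35.1 and 56.9 CPM. Sgca and Sgcb shared the range of 3.23 to 6.53 CPM per kilobase of span from E18.5 on, while Sspn remained between 0.812 and 1.72 CPM. Per kilobase of exon the order was different, and Sgcd, at 206 to 386 CPM, came second to Dmd in all libraries.

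**Figure D1:**
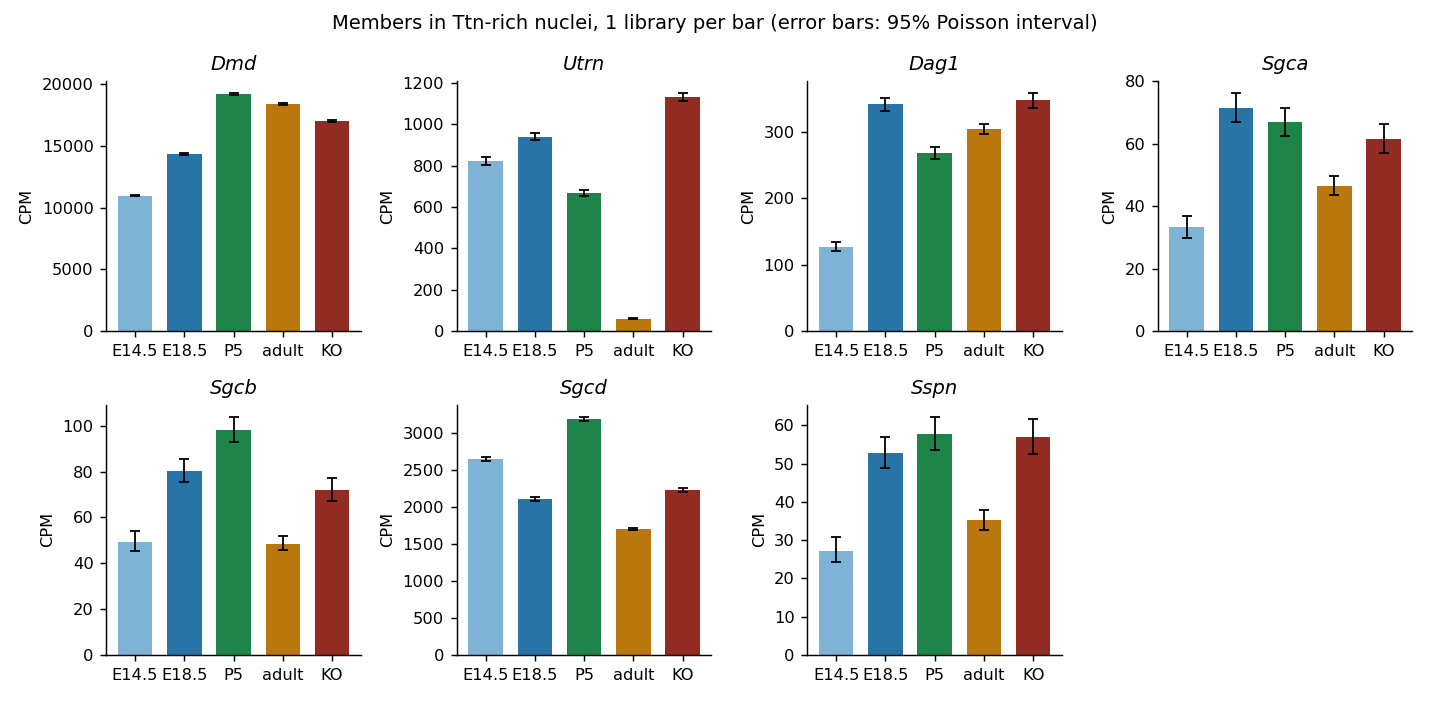
Level of each of the 7 genes in Ttn-rich nuclei, in CPM on linear axes from 0, with 1 bar per library in library order and exact 95% Poisson intervals as error bars. Utrn stands at 61.3 CPM in adult, where Dmd stands at 18404 CPM.

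Between E14.5 and E18.5, from embryonic to fetal muscle, 2 of the 7 genes were higher by at least 2-fold and none lower. The share over all 14560 genes measured was 17.3% higher and 9.94% lower. Dag1 was 2.68-fold higher (2.52 to 2.85) and Sgca 2.15-fold higher (1.90 to 2.45). Sspn at 1.94-fold, Sgcb at 1.62, Dmd at 1.31, Utrn at 1.14 and Sgcd at 0.795 were within 2-fold. The median log2 ratio of the 7 genes was 0.70, against 0.17 for all genes, and relative to the latter Dag1 was at 1.26 and Sgca at 0.94. With TMM factors, median-of-ratios size factors or no filter on nuclei only Dag1 passed 2-fold, with Sgca at 1.90 to 2.00. Among all genes called, 63.5% were higher, which became 57.1% with TMM factors, 53.1% with median-of-ratios size factors and 50.8% when only clusters named as myonuclei were used.

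Between E18.5 and P5, over birth, all 7 genes were within 2-fold, where 7.68% of all genes were higher and 21.4% lower. Sgcd had the largest ratio, 1.51 (1.49 to 1.54), followed by Dmd at 1.34 and Sgcb at 1.22. Utrn had the smallest, 0.712 (0.693 to 0.733). Dag1 at 0.785 and Sgca at 0.936 were below 1, and both were above 1 with median-of-ratios size factors. The median log2 over all genes was -0.37 in this comparison and -0.40 in the next, so ratios are also given relative to it. On that scale the log2 ratio was 0.97 for Sgcd, 0.79 for Dmd, 0.66 for Sgcb, 0.50 for Sspn, 0.28 for Sgca, 0.02 for Dag1 and -0.12 for Utrn. The higher share of all called genes was 26.4%, and 47.5% with TMM factors or 49.5% with median-of-ratios size factors.

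From P5 to adult, Utrn was 10.9-fold lower (10.3 to 11.6) and Sgcb 2.02-fold lower (1.86 to 2.20). These were 2 of 7 genes, where 33.8% of all 13807 genes measured were lower and 8.31% higher. Sgcd at 0.534, Sspn at 0.607 and Sgca at 0.695 were within 2-fold, as were Dmd at 0.957 (0.952 to 0.962) and Dag1 at 1.14 (1.09 to 1.19). Relative to the median of all genes, the log2 ratio of Utrn was -3.05, and those of the other 6 were between -0.62 and 0.58. The size for Utrn was between 7.17-fold and 13.7-fold lower over all alternatives of scaling and nuclei. Dmd and Sgca changed sides of 1 with median-of-ratios size factors, where they were at 1.46 and 1.06. Sgcb was within 2-fold with TMM factors, with median-of-ratios size factors, without Ttn and mitochondrial genes in the total, or without a filter on nuclei. The higher share of all called genes was 19.8%, against 39.2% with TMM factors, 44.7% with median-of-ratios size factors and 31.4% in clusters named as myonuclei.

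The summed level of 11 mesenchymal markers moved with the stages in Ttn-rich nuclei. It was 302, 1290, 1404, 62.5 and 613 CPM in library order, with no marker at 0. In the Ttn-rich nuclei of clusters named as myonuclei the sums were 208, 265, 185, 20.7 and 158 CPM. There Utrn was at 607 CPM at P5 and 44.1 CPM in adult, 13.7-fold lower, a ratio as large as that over all Ttn-rich nuclei. Sgcd was 2.02-fold lower in those nuclei.

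In KO against wild type at E18.5, the comparison that asks about loss of Cav1.1, none of the 7 genes passed 2-fold, where 6.2% of all 14589 genes measured were higher and 5.52% lower. Utrn was at 1.20 (1.17 to 1.23) and Dmd at 1.18 (1.18 to 1.19). Sspn was at 1.08, Sgcd at 1.06, Dag1 at 1.02, Sgcb at 0.897 and Sgca at 0.862. Dag1 was at 0.978 without a filter on nuclei, and the other 6 kept their side of 1 over all alternatives. The median log2 ratio was 0.08 for the 7 genes and -0.03 for all genes. KO and wild-type fetuses were from different pools, and the difference between pools of 1 genotype cannot be told apart from the difference between genotypes.

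Utrophin was next read against dystrophin within each library, a ratio that needs no scaling. Ttn-rich nuclei held, in library order, 0.0748 Utrn UMIs per Dmd UMI (0.0731 to 0.0765), 0.0654 (0.0642 to 0.0666), 0.0348 (0.0341 to 0.0356), 0.00333 (0.00315 to 0.00352) and 0.0665 (0.0653 to 0.0677). The order was E14.5, then KO and E18.5, whose intervals overlapped, then P5 and adult. Per kilobase of gene span the ratios were 0.347, 0.303, 0.161, 0.0154 and 0.308.

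Outside the myonuclei there were more Utrn UMIs per Dmd UMI than in Ttn-rich nuclei. All kept nuclei, Ttn-rich ones included, were clustered together. Clusters were named from marker genes, so that a name means only that the cluster was like that cell type. The classes hold the nuclei of the named clusters with Ttn under 1% of UMIs. Utrn had more UMIs than Dmd in 16 of 26 sums over a class and a library. Since Dmd is the longer gene, Utrn was the higher per kilobase of span in 25 of 26, and per kilobase of exon in 18 of 26. The ratios that follow are of UMIs, not scaled to length. Endothelial-like nuclei held 4.44 Utrn UMIs per Dmd UMI (3.97 to 4.96) at E18.5 and 5.17 (4.52 to 5.92) at P5, and 1.25 and 1.69 at E14.5 and in KO. In those with Ttn under 0.1% of UMIs, Dmd was at 140, 182, 253 and 324 CPM in library order without adult. This was in place of 949, 452, 430 and 938 CPM. Utrn was at 1256, 2027, 2327 and 1694 CPM in them. The endothelial-like ratios thus depended on the Ttn limit and are not compared between libraries. Mesenchymal-like nuclei held 3.16, 2.41, 1.93, 1.18 and 2.18 in library order.

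Tenocyte-like nuclei, a class of 3 libraries, were at 2.57 at E18.5, 2.48 at P5 and 1.69 in KO, and adipocyte-like nuclei at 5.27 in adult and 1.81 in KO. Adipocyte-like nuclei with Ttn under 0.1% of UMIs had 320 CPM of Dmd in adult and 224 CPM in KO, in place of 499 and 1078 CPM. Smooth muscle- and pericyte-like nuclei were at 0.248, 0.260 and 0.208 UMIs in E18.5, P5 and KO, which per kilobase of span was 1.15, 1.20 and 0.964. Progenitor-like nuclei, which expressed markers of muscle stem cells and myoblasts, were at 1.02, 0.432, 0.387 and 0.342 in library order, without adult, whose 35 such nuclei were under the minimum of 50. Per kilobase of span these were 4.72, 2.00, 1.80 and 1.59. The ratio of these nuclei stood between those of Ttn-rich nuclei and of mesenchymal-like nuclei in each of the 4 libraries.

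**Figure D2:**
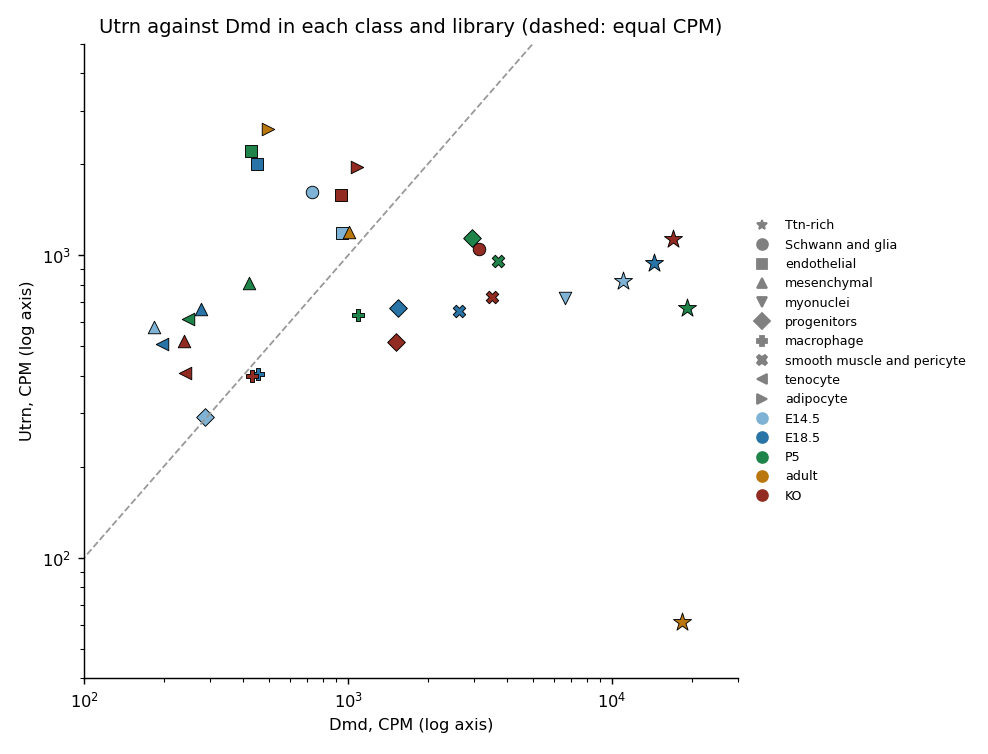
Utrn against Dmd in each class of nuclei and library, both in CPM on log axes, where the symbol gives the class, the color the library and the dashed line equal CPM, not scaled to gene length. The stars of Ttn-rich nuclei lie at 10991 to 19224 CPM of Dmd, and the adult star is the lowest in Utrn.

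By class, Utrn was highest in endothelial-like nuclei at E18.5 (2004 CPM, 1911 to 2101) and at P5 (2219 CPM, 2102 to 2342), in Schwann- and glia-like nuclei at E14.5 (1624 CPM), and in adipocyte-like nuclei in adult (2626 CPM) and in KO (1955 CPM). In each library the interval of the highest class lay apart from that of the second. Only classes of at least 50 nuclei were ranked, 6, 7, 7, 3 and 9 in library order with the Ttn-rich nuclei. Endothelial-like nuclei in adult (20) were not ranked. Schwann- and glia-like (45 and 46) and adipocyte-like nuclei (9 and 48) were not ranked at E18.5 and P5. The highest class is therefore not compared between libraries. Mesenchymal-like nuclei were at 580, 666, 812, 1197 and 521 CPM in library order, so that in adult they were above the Ttn-rich nuclei at 61.3 CPM. Macrophage-like nuclei, at 406 CPM at E18.5, 636 CPM at P5 and 400 CPM in KO, were the lowest class at E18.5 and in KO. RNA freed from fibers can be counted with other nuclei, and the level it would give was taken as the Ttn level of the class times the ratio of a gene to Ttn in the Ttn-rich nuclei. Utrn was at least 4.19 times that level in every class apart from the E14.5 nuclei of myonuclear clusters with little Ttn, at 2.22 times.

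Dmd was highest in Ttn-rich nuclei in each library, and the second class was at 6628 CPM or less. Smooth muscle- and pericyte-like nuclei had 2629 CPM (2487 to 2776) at E18.5, 3695 CPM (3499 to 3899) at P5 and 3512 CPM (3370 to 3658) in KO, which was 12.02, 17.7 and 6.42 times the level from fiber RNA. Smooth muscle is known to make full-length dystrophin. Progenitor-like nuclei had 287 CPM and 0.308 times that level at E14.5, 1552 CPM and 1.46 times at E18.5, and 2954 CPM and 7.50 times at P5. In KO they were at 1514 CPM and 1.21 times. Progenitor-like nuclei with Ttn under 0.1% of UMIs had 184, 1876, 3206 and 1576 CPM in library order without adult. The level from fiber RNA takes all Ttn of a class as free RNA, so it is too high where nuclei make Ttn themselves. Mesenchymal-like nuclei were between 184 and 1010 CPM, 1.48 to 3.98 times the fiber RNA level. Schwann- and glia-like nuclei were at 729 CPM at E14.5 and 3128 CPM in KO.

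Dag1 was highest in progenitor-like nuclei in the 4 libraries with at least 50 such nuclei. They had 227, 632, 687 and 424 CPM in library order without adult, at least 16.6 times the level from fiber RNA. At E14.5 the interval overlapped that of the second class, and in the other 3 libraries it did not. Endothelial-like nuclei were at 56.9 to 127 CPM over 4 libraries and mesenchymal-like nuclei at 51.7 to 109 CPM over 5.

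Sgca was highest in Ttn-rich nuclei in each library, and at E14.5 the nuclei of myonuclear clusters with little Ttn overlapped them at 31.5 CPM. Progenitor-like nuclei had 14.2, 24.8, 21.9 and 23.7 CPM in library order without adult, which was 4.68 to 16.0 times the fiber RNA level. Mesenchymal-like nuclei were at 0.643, 1.81, 1.09, 3.17 and 1.17 CPM, from 2 to 16 UMIs. No Sgca UMI was seen in endothelial-like and Schwann- and glia-like nuclei at E14.5, adipocyte-like nuclei in adult and tenocyte-like nuclei in KO, which allows up to 5.33, 8.75, 7.12 and 8.15 CPM at a floor of 3 counts.

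Sgcb was near the same level in progenitor-like as in Ttn-rich nuclei, at 42.5, 82.2, 117 and 63.3 CPM in library order without adult, with overlapping intervals in each. Mesenchymal-like nuclei were lower, at 27.2, 36.7, 36.1, 17.4 and 32.5 CPM. Sgcd was split otherwise. Progenitor-like nuclei had 234, 111, 105 and 85.3 CPM, which was 1.04, 0.707, 1.60 and 0.521 times the fiber RNA level. At P5 the interval (75.8 to 141 CPM, 43 UMIs) lay above that level of 65.3 CPM. At E14.5 the value was near that level, and at E18.5 and in KO it was below it. Since that level takes all Ttn of the class as free RNA, it cannot tell whether these nuclei made Sgcd there. Mesenchymal-like nuclei had 1885, 1430, 1000, 315 and 1120 CPM, at least 10.8 times that level, and adipocyte-like nuclei in adult had 1973 CPM (1841 to 2112), above the Ttn-rich nuclei at 1703 CPM (1685 to 1722). Sspn was highest in Ttn-rich nuclei in each library, and in adult and KO its interval overlapped that of the second class.

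Nuclei at the neuromuscular junction, where utrophin protein is known to collect, were picked out among Ttn-rich nuclei of P5 and adult by at least 3 UMIs of Chrne, Chrnd, Chrna1, Colq, Ufsp1, Etv4 and Etv5 together, from at least 2 of these genes, making up at least 0.1% of UMIs. None of the 7 members was used. This gave 87 nuclei at P5 and 30 in adult. Utrn was at 2908 CPM (2782 to 3039) in them against 537 CPM in the other Ttn-rich nuclei at P5, 5.42-fold higher (5.15 to 5.70). In adult it was at 2350 CPM (2123 to 2596) against 41.9 CPM, 56.1-fold higher (49.6 to 63.4). The 30 adult nuclei held 390 of the 1211 Utrn UMIs of all 4429 Ttn-rich nuclei. The level in these nuclei differed by less between P5 and adult than the level in the other nuclei did.

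Utrn was the one member past 2-fold among 7 at P5 and among the 4 with at least 20 UMIs on both sides in adult. The share of all genes that were higher was 7.32% at P5 and 16.1% in adult, and the lower share was 1.83% and 4.91%. Dmd was at 0.690 (0.676 to 0.705) at P5 and 0.666 (0.637 to 0.695) in adult. The ratio of Utrn to Dmd UMIs was 0.215 against 0.0274 at P5 and 0.191 against 0.00227 in adult. Dag1 at 0.986 and 0.751, Sgcd at 0.988 and 0.934 and Sgcb at 1.01 at P5 were near the other nuclei. Median depths were 6904 against 6425.5 UMIs at P5 and 5215 against 3334 UMIs in adult.

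A second pole of the fiber is the myotendinous junction, whose nuclei are known for Col22a1. Nuclei with at least 3 UMIs and 0.1% of UMIs from Col22a1 numbered 468, 92, 63 and 82 in the wild-type libraries by age, and the 13 of KO were not used. Sgcd had the ratio farthest above 1 over the other Ttn-rich nuclei in all 4 libraries, at 1.53 (1.49 to 1.57), 1.40 (1.34 to 1.46), 2.02 (1.95 to 2.10) and 2.94 (2.81 to 3.08). At E18.5 its interval overlapped that of Utrn. Sgcd passed 2-fold at P5 and in adult, where 13.8% and 12.4% of all genes with 20 UMIs on both sides were higher and 5.88% and 4.26% lower. No member was higher at E14.5 or E18.5, where 7.13% and 8.59% of genes were, and none lower at E14.5, where 5.65% were. Dmd was at 1.04, 1.12, 1.31 and 1.71, and Utrn at 1.15, 1.39, 1.55 and 1.71. Sspn at E18.5 was 2.11-fold lower (1.37 to 3.44; 21 UMIs), where 4.79% of genes were lower. At P5 Sspn was at 0.614 (0.362 to 0.977, 18 UMIs). It was at 1.25 (0.966 to 1.61, 95 UMIs) at E14.5 and at 0.839 (0.432 to 1.48, 12 UMIs) in adult. Sgcb was at 0.574 (0.455 to 0.719) at E14.5, and at 0.787, 1.02 and 1.07 at E18.5, P5 and in adult.

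**Figure D3:**
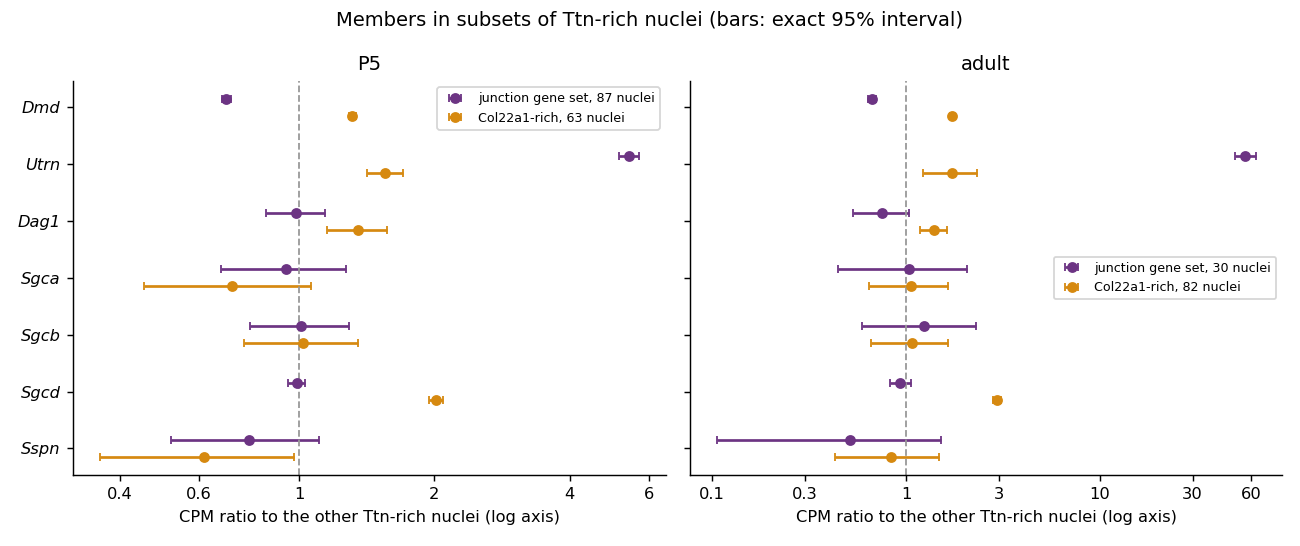
Ratio of each gene in 2 subsets of Ttn-rich nuclei to the other Ttn-rich nuclei of the same library, on log axes, at P5 and in adult, with exact 95% intervals. Utrn stands apart in the nuclei of the junction gene set, at 5.42 and 56.1, and Sgcd in the Col22a1-rich nuclei, at 2.02 and 2.94.

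Adult Ttn-rich nuclei were also split by the myosin heavy chain gene that made up at least 60% of the UMIs of Myh7, Myh2, Myh1 and Myh4, which mark slow to fastest fibers. Myh4-led nuclei numbered 3253, Myh1-led 486, Myh2-led 213 and Myh7-led 25. Utrn was at 55.3 CPM (51.6 to 59.1), 75.5 CPM (65.1 to 87.0), 79.9 CPM (63.6 to 99.2) and 85.7 CPM (37.0 to 169) in that order. Only the Myh4-led level had an interval apart from those of Myh1-led and Myh2-led nuclei. These 3 levels rest on 843, 188 and 82 UMIs. The 30 junction nuclei, with 390 Utrn UMIs, were not removed before the split, and their part in the difference was not tested. Sgca was at 42.1, 58.6, 68.2 and 85.7 CPM and Sgcb at 51.7, 38.9, 31.2 and 64.3 CPM, with 8 and 6 UMIs behind the last value of each. Dmd was at 18181, 19218, 19812 and 23874 CPM. No member with at least 20 UMIs on both sides passed 2-fold in any of these subsets, where 22.2% (Myh7-led), 10.4% (Myh2-led), 7.27% (Myh1-led) and 2.79% (Myh4-led) of genes were higher and 4.5%, 3.7%, 2.5% and 8.87% lower.

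Over the 32 sums of a class in a library with at least 50 nuclei, the genes whose log2(CPM + 1) was most like that of Dmd among 13246 genes were Dtna (Pearson r = 0.938), Ldb3 (0.919), Myom1 (0.903), Jph2 (0.897) and Akap6 (0.890). Dtna encodes α-dystrobrevin, which binds dystrophin, Ldb3 and Myom1 encode sarcomere proteins, and Jph2 and Akap6 encode proteins of the junctional membranes and the nuclear envelope. Those most like Utrn were Hspg2 (0.797), Tspan18 (0.768), Plcb1 (0.764), Anxa2 (0.760) and Cdc42ep1 (0.750). Hspg2 encodes perlecan, a basement membrane ligand of dystroglycan. Among the members, r with Dmd was 0.77 for Sgca, 0.61 for Dag1, 0.58 for Sgcb, 0.51 for Sspn, 0.24 for Sgcd and -0.09 for Utrn. Sums of 1 library share their depth and preparation, so these values are descriptions with no test.

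The chromatin at the start sites was read from peaks called within each library, so that widths differ. The annotation gives 31 start regions for the 7 genes, of which 10 had a peak within 500 bases in all 5 libraries, 6 in some and 15 in none. The 10 were Dmd starts 1 and 8, Utrn starts 1, 2 and 8, Dag1 start 1, Sgca start 2, Sgcb start 1, Sgcd start 4 and Sspn start 2. Values are ATAC counts in counts-per-million units (ATAC CPM), scaled to all counts in the peaks of the same nuclei. Utrn start 3, the RefSeq start at chr10:12861735, had no peak in any library.

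Dmd start 1, before the full-length muscle transcript, was at 12.2, 13.1, 13.9, 11.3 and 19.5 ATAC CPM in library order. Start 8 was at 7.78, 8.15, 9.69, 6.86 and 4.87. The counts of both starts lay farthest apart in KO, where start 1 was at 1.48 times wild type (1.17 to 1.88; 112 and 195 counts) and start 8 was 1.67-fold lower (1.10 to 2.62; 28 and 121 counts), both within 2-fold.

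The starts of Utrn lie close together at chr10:12869365 (start 1) and chr10:12868171-12868281 (start 2). Start 1 was at 27.9, 33.6, 34.9, 12.9 and 35.2 ATAC CPM and start 2 at 28.3, 24.8, 26.6, 7.10 and 28.5. Adult was the low library at both. Against P5, start 1 was 2.71-fold lower in adult (2.37 to 3.09; 497 and 410 counts) and start 2 was 3.75-fold lower (3.18 to 4.43; 274 and 313 counts). Peak widths were 857 and 883 bases at start 1, and per kilobase of peak the size was 2.63-fold.

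Sgcd start 4 was at 30.5, 31.0, 33.4, 10.0 and 38.1 ATAC CPM, 3.33-fold lower in adult than at P5 (2.88 to 3.84). Sspn start 2 was at 21.1, 20.0, 31.8, 17.9 and 17.1. The starts of Dag1 (73.4, 89.4, 98.3, 99.6 and 104), Sgcb (55.6, 67.5, 68.8, 62.3 and 70.3) and Sgca start 2 (36.6, 33.9, 36.0, 40.2 and 38.8) varied least. A peak at Sgca start 1 was called in adult alone, at 18.1 ATAC CPM. With all starts of a gene summed, Utrn at 3.53-fold (3.22 to 3.88) and Sgcd at 3.91-fold (3.41 to 4.49) were 2 of 7 genes lower in adult than at P5, where 12.3% of 17141 genes with a peak in both libraries were lower and 1.41% higher. Fewer of their starts had a peak in adult, which covered 2516 against 4572 bases for Utrn and 893 against 1796 for Sgcd. Per kilobase covered both were 1.94-fold lower, within 2-fold, but this sets unlike sets of peaks side by side. At the starts with a peak in both libraries, Utrn was 2.63-fold (start 1), 3.44-fold (start 2) and 2.17-fold (start 8) lower per kilobase. Sgcd start 4 was 3.22-fold lower per kilobase. No member passed 2-fold over all starts in the other comparisons. There 2.08% (E18.5 over E14.5), 2.01% (P5 over E18.5) and 1.04% (KO over E18.5) of genes were higher and 2.87%, 2.38% and 3.3% lower. The single Utrn start 8 was 2.19-fold lower in KO (1.26 to 4.09, 15 and 85 counts). Those shares are of genes with all starts summed, and no share over single starts was computed. For RNA and start counts alike, Utrn was below its P5 level in adult, by 10.9-fold in RNA and 2.71-fold at start 1, while Sgcb, 2.02-fold lower in RNA, was at 0.906 (0.837 to 0.983) in start counts.

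**Figure D4:**
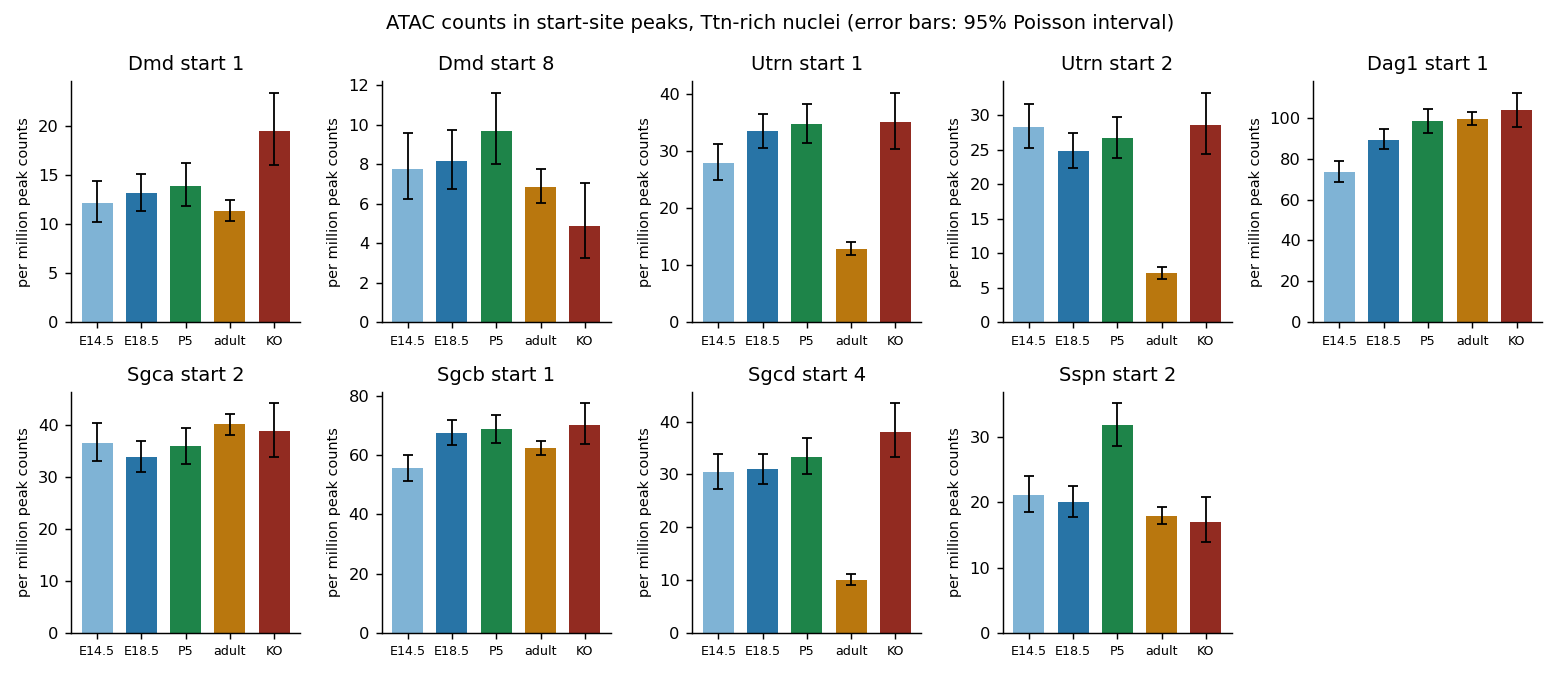
ATAC CPM at 9 start sites in Ttn-rich nuclei, on linear axes from 0, with 1 bar per library and exact 95% Poisson intervals. Adult is the low bar at Utrn starts 1 and 2 and at Sgcd start 4, at 12.9, 7.10 and 10.0, and stands beside the other libraries at the starts of Dag1, Sgca and Sgcb.

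In the nuclei of the junction gene set, the Utrn starts differed from each other. Start 2 was at 69.6 ATAC CPM (51.4 to 92.3; 48 counts) against 23.9 in the other Ttn-rich nuclei at P5, 2.91-fold higher (2.09 to 3.97). In adult it was at 31.2 (15.0 to 57.4; 10 counts) against 6.89, 4.53-fold higher (2.15 to 8.46). Start 1 was at 36.3 against 34.8 at P5, a ratio of 1.04 (0.667 to 1.56), and at 12.5 against 12.9 in adult, 0.970 (0.263 to 2.50; 4 counts). The counts in excess lay at start 2 in both libraries. Sgcb start 1 was at 34.8 (24 counts) against 70.9 at P5, a ratio of 0.491 (0.313 to 0.736), and at 53.1 against 62.4 in adult. Low ratios at P5 were also seen at Sgca start 2, 0.509 (0.269 to 0.881, 13 counts), and Dmd start 8, 0.287 (0.0343 to 1.06, 2 counts). The share of all genes past 2-fold at their starts was not computed for these nuclei. Dmd start 1 was at 14.51 against 13.9 at P5 and 9.36 (3 counts) against 11.3 in adult.

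The starts of Dmd also divided the classes. In smooth muscle- and pericyte-like nuclei start 1 was at 19.5 ATAC CPM (10.1 to 34.1; 12 counts) at E18.5, 14.52 (5.84 to 29.9; 7 counts) at P5 and 6.91 (0.837 to 25.0; 2 counts) in KO, with intervals around the Ttn-rich values in all 3. Endothelial-like nuclei had no count there in 4 libraries, with upper limits of 7.13, 2.87, 5.96 and 9.13 ATAC CPM in library order without adult. Tenocyte-like nuclei had none in 3 libraries, and mesenchymal-like nuclei were between 0 and 1.43. At start 8 the same endothelial-like nuclei had 23.2 (11.98 to 40.5), 13.2 (7.70 to 21.2), 12.9 (5.58 to 25.5) and 17.3 (6.97 to 35.7) ATAC CPM, and mesenchymal-like nuclei 12.5, 7.87, 5.55, 12.7 and 2.86. In progenitor-like nuclei start 1 had no count at E14.5 and P5, with upper limits of 1.83 and 6.48, and was at 6.17 (11 counts) and 7.13 (12 counts) ATAC CPM at E18.5 and in KO. Start 1 was counted in Ttn-rich and in smooth muscle- and pericyte-like nuclei of each library with these classes, and in progenitor-like nuclei at E18.5 and in KO only. Start 8 was also counted in endothelial-like and mesenchymal-like nuclei. Both sequences above were shown for this difference between classes, and a link of their motifs to it was not tested.

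**Figure D5:**
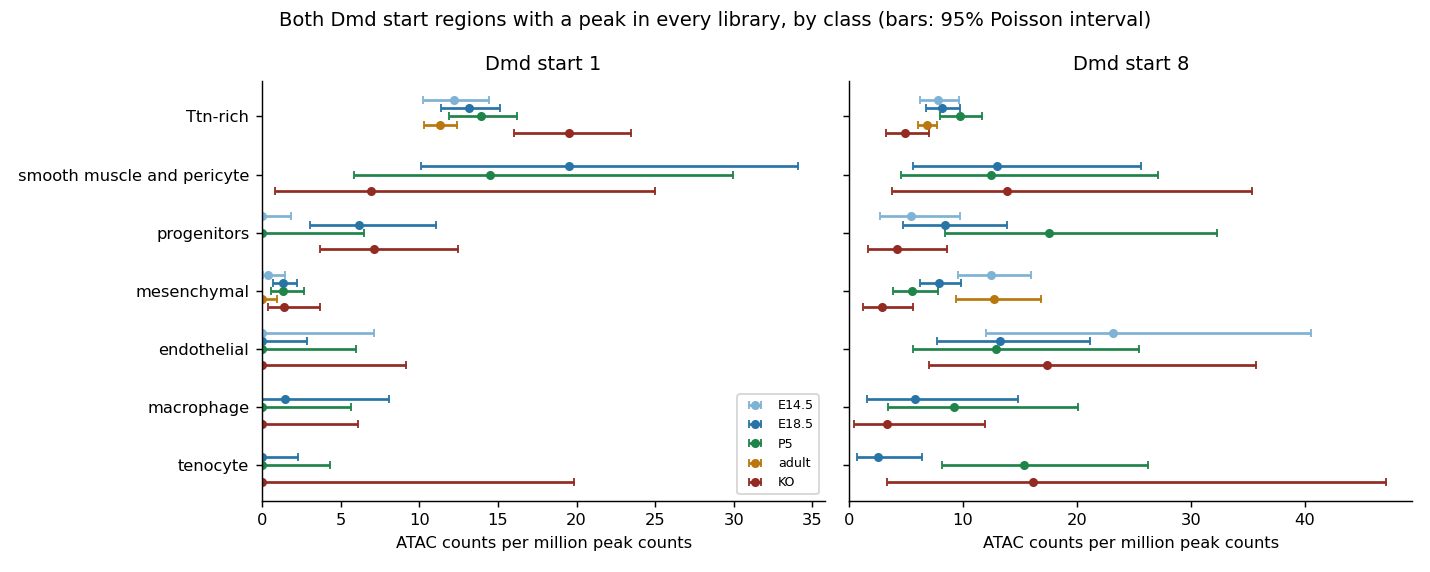
ATAC CPM at Dmd start 1 and start 8 by class of nuclei, with 1 point per library and exact 95% Poisson intervals, on linear axes from 0. Start 1 is at 0 in endothelial-like and tenocyte-like nuclei of each library shown, while start 8 has counts in both.

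At the Utrn starts the classes differed less. Start 1 was at 25.1, 42.0, 51.7 and 29.7 ATAC CPM in endothelial-like nuclei in library order without adult and at 46.7, 42.3, 56.4, 49.8 and 39.4 in mesenchymal-like nuclei of the 5 libraries. Adult Ttn-rich nuclei, at 12.9 (11.8 to 14.1), lay below adult mesenchymal-like nuclei, at 49.8 (43.0 to 57.4), and below adult adipocyte-like nuclei, at 45.8 (36.2 to 57.1). Sgca start 2 was at 32.7, 30.3, 36.9 and 42.2 ATAC CPM in progenitor-like nuclei in library order without adult and 4.03, 4.74, 7.23, 2.59 and 11.8 in mesenchymal-like nuclei. Smooth muscle- and pericyte-like nuclei, with 2 to 6 Sgca UMIs, had 13.02, 29.1 and 38.0 ATAC CPM there at E18.5, P5 and KO. Sgcd start 4 was at 3.51 ATAC CPM (2 counts) in progenitor-like nuclei at P5 while the other 3 libraries had 26, 33 and 28 counts there, with the lowest level at 12.9 ATAC CPM.

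The other proteins of the complex were taken from a list of 12 genes, chosen like all lists here with earlier results of these data known. At E18.5 against E14.5, 4 of 12 were higher and 2 lower, with a median log2 of 0.30, where 17.3% of all genes were higher and 9.94% lower. Nos1, neuronal nitric oxide synthase that docks on the complex, was at 48.9 against 2.36 CPM, 20.7-fold higher. Dtna was 3.51-fold higher. Sgcz and Sntg2 were 2.92-fold and 2.56-fold lower, and with Ttn at 2% or more Sgcz was 2.76-fold higher instead. Sntb2 was 2.82-fold higher, but at 0.974 in clusters named as myonuclei. At P5 against E18.5, 0 of 12 were higher and 2 lower, where 7.68% of all genes were higher and 21.4% lower, with a median log2 of 0.25, and the 2 were Sgcz, 8.86-fold lower, and Cav3, the caveolin of muscle, 2.23-fold lower.

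In adult against P5, 2 of the 12 were higher and 4 lower, with a median log2 of -0.79, where 8.31% of all genes were higher and 33.8% lower. Sntb1, β1-syntrophin, was at 48.3 against 1205 CPM, 24.9-fold lower (23.4 to 26.6), a larger drop than that of Utrn. Sgce, ε-sarcoglycan, was at 26.0 against 339 CPM, 13.02-fold lower, and Cav3 was 3.92-fold lower. Nos1 was 2.70-fold higher and Sntg2 5.23-fold higher. Sntb2 was 2.77-fold lower in all Ttn-rich nuclei but higher in clusters named as myonuclei, at 20.1 against 11.4 CPM. In KO against wild type 1 was higher and 1 lower, with a median log2 of -0.02, where 6.2% of all genes were higher and 5.52% lower. The shares of all genes are the same beside the 4 lists that follow. Sntg2 was 3.19-fold higher and Sgcz 2.75-fold lower, and in clusters named as myonuclei they were at 1.89 and 0.580, within 2-fold.

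Of 8 laminins and other ligands outside the cell, Lama5 and Lamb2 were higher and Lama2 lower at E18.5 against E14.5 (median log2 0.65), at 3.34-fold, 2.51-fold and 2.21-fold. Lama2, the chain of the laminin that dystroglycan binds in muscle, was at 2619, 1183, 1192, 386 and 1115 CPM in library order. At P5 Lamc1 was 2.01-fold higher than at E18.5 and Lama5 4.63-fold lower (median log2 -0.17). In adult 5 of 8 were lower and 1 higher (median log2 -1.16), where 33.8% and 8.31% of all genes were. Lamb1 was 13.6-fold lower, Lama4 10.7-fold, Lama2 3.09-fold and Lamb2 2.32-fold lower, and Lama5 4.84-fold higher. None of the 8 passed 2-fold in KO (median log2 -0.06). The mesenchymal marker sums given above were also lower in adult than at P5, at 62.5 against 1404 CPM, while Lama5 was higher. From E14.5 to E18.5 these sums rose from 302 to 1290 CPM while Lama2 fell. A part of mesenchymal RNA in the laminin levels was not tested. In clusters named as myonuclei Lama2 was at 0.355 of its P5 level in adult.

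Of the 13 enzymes that glycosylate dystroglycan, between 12 and 13 were measured in each comparison. At E18.5 against E14.5 none was higher and Pomgnt2 was 2.30-fold lower, with 25 and 46 UMIs (median log2 0.09). At P5, B3galnt2 was 2.44-fold and Gmppb 2.07-fold higher than at E18.5 and Pomk was 2.39-fold lower (median log2 -0.13). Few UMIs lay behind Gmppb (26 and 13) and Pomk (19 and 47), against 2287 and 970 behind B3galnt2. In adult, Pomgnt2 was 4.19-fold higher than at P5 and 3 were lower, among them Gmppb by 6.002-fold and Rxylt1 by 3.99-fold (median log2 -0.19), with 7 and 26 UMIs behind Gmppb, where 8.31% of all genes were higher and 33.8% lower. None passed 2-fold in KO (median log2 -0.07).

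Of 13 genes of membrane and cytoskeletal linkage, Synm and Ank3 were higher at E18.5 than at E14.5, 18.9-fold and 7.33-fold, with none lower (median log2 0.60). Synm encodes synemin, an intermediate filament protein that binds the complex, and Ank3 encodes ankyrin-G. At P5, Synm was 3.25-fold, Ank3 2.18-fold and Capn3 2.11-fold higher than at E18.5, with none lower (median log2 -0.31). In adult none was higher and 4 of 13 were lower, where 8.31% and 33.8% of all genes were (median log2 -0.51). Itga7 was lower by 2.82-fold, Vcl by 2.17-fold, Dysf by 2.04-fold and Itgb1 by 2.01-fold. Size factors move all genes of a comparison alike, and median-of-ratios ones took Sgcb from 2.02-fold to 1.33-fold lower. All 4 would be within 2-fold with them. The same factors would take Ank3, Capn3 and Synm past 2-fold higher in adult. As reported these were at 3354 against 2142 CPM, 264 against 155 CPM and 125 against 66.7 CPM, within 2-fold. In KO, Synm alone passed 2-fold, at 3.96 against 20.5 CPM, 5.18-fold lower (3.75 to 7.30), with a median log2 of -0.18.

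The 7 genes that picked out junction nuclei were compared too. At E18.5 against E14.5, Etv4 was 6.63-fold higher among 6 measured (median log2 -0.14), and at P5 Chrne was 9.27-fold higher and Chrnd 3.70-fold lower than at E18.5 among 7 (median log2 -0.30). All 7 were lower in adult than at P5 (median log2 -2.76), where 33.8% of all genes were, among them Chrna1 by 63.8-fold, Ufsp1 by 13.2-fold and Colq by 6.77-fold, and Chrnd had 0 UMIs in adult and was at least 51.7-fold lower at a floor of 3 counts. In KO, Chrna1 was 2.53-fold higher and Ufsp1 2.92-fold lower among 6 (median log2 0.36). Chrne, at 5.47 CPM in adult against 13.2 CPM at P5, and Etv5, at 12.2 against 29.8 CPM, had the smallest drops. Both would be within 2-fold with median-of-ratios size factors. Utrn, at 10.9-fold lower in adult, lay within the range of the 7 genes.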

How the data were processed

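Nuclei of 5 libraries (5 groups, 1 library each) were profiled by 10x Genomics multiome. The authors made the deposited counts with Cell Ranger ARC 2.0.0 on mm10: UMIs per gene, intronic reads included, and ATAC counts per peak, with peaks called in each library. Strand handling and ambient RNA removal are not given in the sources used here. The KO table held 3621 barcodes, fewer than the nuclei counted by the study for that library. Between 3228 and 5106 nuclei per library passed the limits of 400 to 25000 UMIs, less than 70000 ATAC counts and a mitochondrial share below 10%. No doublet caller was run, and clusters named as myonuclei were used alone as an alternative. Nuclei were clustered with scanpy 1.11.5 (Leiden resolution 1), and classes were named from marker genes and used from 50 nuclei on.

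UMIs were summed per class and given as CPM with exact Poisson intervals, and ratios with exact conditional (Clopper-Pearson) intervals, by scipy 1.17.1. A gene was measured from 20 UMIs in 1 of both libraries, and a count of 0 was set to a floor of 3 counts. Depth limits small classes most. Intervals cover counting error only. Gene positions are those of GENCODE vM21. Alternatives were TMM factors (edgeR 4.0.16, R 4.3.3), median-of-ratios size factors, a total without Ttn and mitochondrial genes, other Ttn limits, no filter on nuclei, other clusterings and wider start windows. The scripts were tested on simulated data.

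The members and lists were chosen with earlier results of these data known. All 7 members were named, and from each list the up to 4 measured genes with the largest fold past 2-fold in each direction. Some genes that this rule names are not reported here.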

Additional observations from a re-analysis of the deposited data

How the results depend on the processing

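No paired analysis was possible because each group was 1 library and no groups shared 2 replicate numbers. Of 1173 alternative values for 326 results, 869 moved by less than their counting interval or, for counts of genes, by less than 1.5 times, 304 moved by more, and none of these reversed a called direction. The genes of the other lists were recomputed too, with 57 calls and 438 alternative values, of which 3 reversed: Sgcz at E18.5 over E14.5, at 0.342 as reported and 2.76 with Ttn at 2% or more, and Sntb2 in clusters named as myonuclei, at 0.974 in place of 2.82 at E18.5 over E14.5 and 1.77 in place of 0.361 in adult over P5. For the list genes only the direction was checked, not whether a call stayed past 2-fold. In adult over P5, median-of-ratios size factors made every drop smaller, that of Sgcb from 2.02-fold to 1.33-fold. List drops not far above 2-fold, such as those of Lamb2, Sntb2 and Itga7, would be within 2-fold with them. Some list genes within 2-fold as reported, such as Ank3, Capn3 and Synm, would be past 2-fold higher. The Utrn to Dmd ratio in library order was 0.0778, 0.0683, 0.0360, 0.00358 and 0.0710 with Ttn at 0.5% or more. With Ttn at 2% or more it was 0.0724, 0.0604, 0.0274 and 0.0575 in the libraries other than adult. In clusters named as myonuclei it was 0.0729, 0.0601, 0.0278, 0.00236 and 0.0617. Without a filter on nuclei it was 0.0693 at E18.5, 0.0368 at P5 and 0.0741 in KO, and with nuclei thinned to 1000 UMIs 0.0766, 0.0631, 0.0332 and 0.0614 in the libraries other than adult. Without the nuclei of the junction gene set, an alternative chosen after seeing the data, it was 0.0274 at P5 and 0.00227 in adult, since these nuclei hold much Utrn.

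The ratio of Utrn in adult to P5, 0.0915 as reported, was 0.104 with Ttn at 2% or more, 0.0728 in clusters named as myonuclei, 0.129 with TMM factors, 0.139 with median-of-ratios size factors and 0.0780 without the junction nuclei. Members higher at E18.5 than at E14.5 were 1 in place of 2 with no filter on nuclei, TMM factors or median-of-ratios size factors. Members lower in adult than at P5 were 1 in place of 2 under these 3 and without Ttn and mitochondrial genes in the total.

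Over all genes, 1116 were higher and 3109 lower at P5 than at E18.5, which became 1715 and 1896 with TMM factors and 1776 and 1811 with median-of-ratios size factors. Genes higher in adult, 1148 as reported, became 2336 and 2779 under the same factors. With no minimum of UMIs more genes passed by construction: 4778 higher and 3935 lower at E18.5 over E14.5, 3344 and 5404 at P5 over E18.5, 9387 lower in adult over P5, and 3407 and 2706 in KO, where no filter on nuclei gave 1417 higher in place of 905. Apart from the settings whose construction is named, the cause was not tested. Subtracting the fiber RNA level, also chosen after seeing the data, left more UMIs of Utrn than of Dmd in 21 of 26 class sums, against 16, neither scaled to length. Counts of 10 or fewer, as at several starts in small classes and in the 30 adult junction nuclei, allow no firm level.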
